A study of Mus musculus with 12 samples.

Results

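The 9 genes described here carry the insulin signal in a fat cell to glucose uptake. They are Insr, Irs1, Irs2, Pik3r1, Akt1, Akt2, Tbc1d4, Slc2a4 and Foxo1, and each was found by its symbol among the 32238 genes of the deposited count table. All 9 were abundant enough to be tested, among 20297 tested genes. They were measured by RNA sequencing in gonadal white adipose tissue, the visceral fat pad beside the gonads, of mice.

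Insulin binds its receptor, encoded by Insr, whose kinase phosphorylates the docking proteins IRS1 and IRS2. These recruit phosphatidylinositol 3-kinase through its regulatory subunit, encoded by Pik3r1, and the lipid it makes brings the kinases AKT1 and AKT2 to the membrane. AKT phosphorylates TBC1D4, also called AS160, which otherwise holds vesicles of the glucose transporter GLUT4 (Slc2a4) inside the cell, and it phosphorylates FOXO1, which keeps that transcription factor out of the nucleus. Phosphorylation and transport of these proteins are not seen in RNA.

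The 4 groups were mice without Bnip3 in macrophages (MKO) on a high-fat diet (HFD), MKO mice on the normal chow diet (NCD), wild-type (WT) mice on HFD and WT mice on NCD. Each diet lasted 12 weeks and began at 8 weeks of age, and each group held 3 biological replicates (rep), 12 libraries in all. Bnip3 encodes a mitophagy receptor of the outer mitochondrial membrane. The Cre driver, the strain and the sex of the mice are not given in the sources used here. The comparisons were HFD against NCD in each genotype, MKO against WT on each diet, the genotype difference averaged over diets, and the difference of the diet effect between genotypes.

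Library totals were 52.9 to 72.7 M counts. Levels are counts divided by each library's TMM-scaled total (CPM), which corrects for library size and composition, and each change is a log2 fold change followed by its standard error (SE), tested by edgeR quasi-likelihood with p adjusted by Benjamini-Hochberg over all 20297 genes and called under 0.05. Bnip3 read 415, 446 and 476 CPM in MKO HFD, 547, 563 and 811 CPM in MKO NCD, 358, 410 and 418 CPM in WT HFD and 392, 475 and 568 CPM in WT NCD. It was not lower in MKO fat, and whole-tissue counts of a gene deleted in macrophages alone do not check the genotype labels. MKO NCD rep 2 stood apart, with 57.3% of genes at 0 against 15.6 to 38.3% in the other libraries. Of its genes at 0, 702 had at least 100 counts in every other library. The 9 epididymis markers summed to 0 to 20.04 CPM in MKO NCD and 6353 to 7585 CPM in WT NCD, and to at most 0.2425 CPM in MKO HFD and 0.03558 CPM in WT HFD. The 10 adipocyte markers, Adipoq among them, were present in every library and summed to at least 26150 CPM. Members called numbered the same in all 6 comparisons when MKO NCD rep 2 was left out, but the share of all genes called changed. It went from 17.8% to 31.4% for the diet in WT and from 2.01% to 1.65% for the diet in MKO. For MKO against WT it went from 3.57% to 7.32% on HFD, from 4.35% to 4.76% on NCD and from 7.26% to 11% averaged over diets.

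The start regions of the members called in at least 1 comparison of a pair of groups are shown for the 4 of them that the RefSeq promoter table (GRCm38.p6) holds, to show what regulatory letters genes that moved differently carry. Of the 9 members, 7 have an entry there, and Insr and Slc2a4 have none. Each window runs from 250 bases before to 50 bases after the annotated start, 5′ to 3′ on the gene's own strand. Capitals mark motif matches on either strand: the FOXO motif GTAAACA, the SREBP motif TCACNCCAC, the E-box CACGTG and the GC box GGGCGG, which reads CCGCCC on the other strand.
Irs1, chr1:82291390-82291689, minus strand: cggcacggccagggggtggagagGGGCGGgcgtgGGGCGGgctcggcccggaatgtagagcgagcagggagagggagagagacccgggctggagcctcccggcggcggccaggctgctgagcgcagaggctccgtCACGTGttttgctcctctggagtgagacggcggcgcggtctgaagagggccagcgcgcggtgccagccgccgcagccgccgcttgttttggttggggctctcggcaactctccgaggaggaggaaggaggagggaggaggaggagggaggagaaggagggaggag
Irs2, chr8:11008880-11009179, minus strand: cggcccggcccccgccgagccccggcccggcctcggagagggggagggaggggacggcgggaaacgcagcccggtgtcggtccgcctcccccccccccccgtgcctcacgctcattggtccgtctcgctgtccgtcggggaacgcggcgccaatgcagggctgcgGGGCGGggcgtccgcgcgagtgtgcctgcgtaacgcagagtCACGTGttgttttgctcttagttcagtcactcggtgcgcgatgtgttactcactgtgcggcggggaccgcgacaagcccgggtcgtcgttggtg
Foxo1, chr3:52268087-52268386, plus strand: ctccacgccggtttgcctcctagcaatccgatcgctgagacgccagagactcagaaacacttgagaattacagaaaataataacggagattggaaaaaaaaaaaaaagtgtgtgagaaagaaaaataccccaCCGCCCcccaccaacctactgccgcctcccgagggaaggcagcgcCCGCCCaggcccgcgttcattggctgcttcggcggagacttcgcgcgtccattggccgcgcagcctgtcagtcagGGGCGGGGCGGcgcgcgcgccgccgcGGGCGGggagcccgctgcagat
Tbc1d4, chr14:101609142-101609441, minus strand: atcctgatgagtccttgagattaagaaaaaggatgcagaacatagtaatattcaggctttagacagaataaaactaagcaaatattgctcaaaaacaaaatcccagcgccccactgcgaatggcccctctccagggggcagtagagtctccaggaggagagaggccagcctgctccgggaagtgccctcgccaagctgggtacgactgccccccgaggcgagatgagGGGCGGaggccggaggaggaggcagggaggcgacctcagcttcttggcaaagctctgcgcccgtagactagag

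Irs1 and Irs2 each held an E-box, which 7.15% of all 32851 promoter windows held, and Foxo1 and Tbc1d4 held none. Counted with +1 as the first transcribed base, the E-box began at -115 in Irs1 and at -44 in Irs2. The GC box, which 35.7% of windows held, was in all 4, with 2 matches in Irs1, 1 in Irs2, 5 in Foxo1 and 1 in Tbc1d4. In Foxo1 the matches at 3 and 8 share 1 base. The FOXO motif (3.65% of windows) and the SREBP motif (1.24%) had no match in these 4 windows. GC content was 71.3% in Irs1, 72.0% in Irs2, 61.3% in Foxo1 and 55.7% in Tbc1d4, against a median of 52.7% over all windows. These matches describe letters and are not binding sites shown by these data.

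Per transcript length, Akt2 was the most abundant of the 9, at a mean of 195 TPM (length-scaled transcript abundance, as the authors deposited it) over the 12 libraries. Slc2a4 followed at 124 TPM, then Pik3r1 at 99.9 TPM and Akt1 at 78.3 TPM. Insr, at 37.7 TPM, and Foxo1, at 37.1 TPM, were close, and Tbc1d4 (23.5 TPM), Irs2 (20.4 TPM) and Irs1 (13.4 TPM) came last. The order depended on the group. In MKO HFD fat Irs1 had 12.2 ± 0.811 TPM and Irs2 11.7 ± 5.04 TPM (SD, n = 3), and these ranges overlapped, whereas in WT HFD fat Irs1 had 6.76 ± 0.851 TPM and Irs2 16.1 ± 3.41 TPM (SD, n = 3), with no overlap.

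Part of the pathway was lower on HFD in WT fat. In WT mice, 4 of 9 members fell on HFD (Insr, Irs1, Irs2 and Slc2a4) and 0 rose, where 8.28% of all tested genes fell, 9.5% rose and 17.8% changed in either direction. The members' median log2 fold change was -0.49, against -0.09 over all genes. The count was 2 without WT HFD rep 1 (9.44% of all genes called), WT HFD rep 3 (12%) or WT NCD rep 2 (12.4%). In MKO mice 0 of 9 members passed the same edgeR test, where 2.01% of genes changed (1.04% higher, 0.966% lower), while 8 of 9 had negative fold changes and the median was -0.34, against 0.06 over all genes. At an unadjusted p under 0.05, Insr, Irs1, Irs2, Slc2a4 and Foxo1 were lower on HFD in MKO, where 3457 of all genes passed that mark in either direction. DESeq2 called Irs1, Irs2 and Slc2a4 lower, with 8.57% of all genes called, and limma-voom with sample weights called Irs1, Irs2 and Foxo1 lower, with 6.8% of all genes called. Without MKO HFD rep 3 the edgeR test called 1 member, with 0.432% of all genes called. No member passed the test of the difference between the diet effects, which 0.261% of genes passed (0.118% higher, 0.143% lower). At an unadjusted p under 0.05 that test had Irs1 and Akt1, among 2652 of all genes, and DESeq2 called only Irs1, with 5.56% of all genes called. With 9 members, counts of 2 and 1 are near these backgrounds.

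MKO fat carried more of several members than WT fat. On HFD, Irs1, Slc2a4 and Tbc1d4 were higher in MKO, 3 of 9 members, and 0 were lower, where 1.34% of genes were higher, 2.24% lower and 3.57% changed in either direction. The median of the members was 0.50, against 0 over all genes. On NCD only Foxo1 passed, 1 of 9, where 2.22% of genes were higher, 2.13% lower and 4.35% changed, and the members' median was 0.35, against -0.14. Averaged over the diets, 6 of 9 were higher in MKO (Irs1, Pik3r1, Akt2, Tbc1d4, Slc2a4 and Foxo1), where 4.04% of genes were higher, 3.22% lower and 7.26% changed, with a median of 0.56 against -0.09. These comparisons share libraries and are not independent of each other. The count on HFD rested on few libraries: it was 0 without MKO HFD rep 1 or without MKO HFD rep 2, where 7 and 13 genes of the whole table were called. It was 1 without WT HFD rep 2, with 0.224% of all genes called. The count on NCD was 0 without MKO NCD rep 3 (1.82% of all genes called) or WT NCD rep 1 (1.95%). It was 2 without WT NCD rep 2 (2.73%). The count averaged over diets was 3 without MKO HFD rep 2 (2.85%) or WT HFD rep 2 (3.14%).

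**Figure D1:**
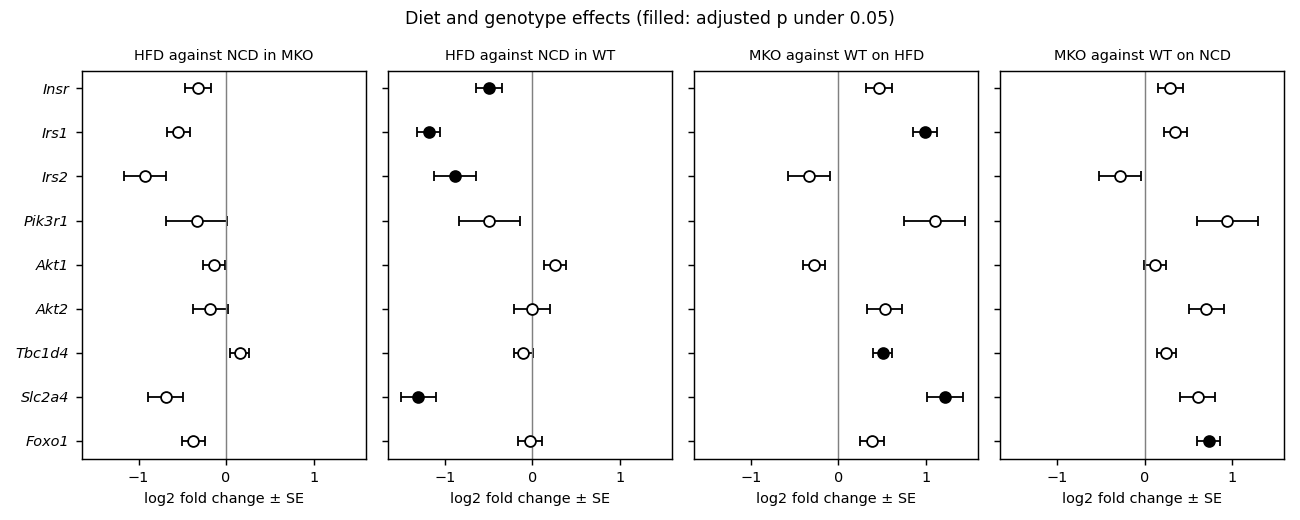
Log2 fold change (x axis, bars SE) of each of the 9 members (y axis) in the 4 comparisons of a pair of groups; filled points have an edgeR adjusted p under 0.05. Irs1 and Slc2a4 are filled in WT on the left of 0 and on HFD on the right of 0, Irs2 lies left of 0 in all 4 panels, and no point is filled for HFD against NCD in MKO.

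Insr (chr8:3150922-3279649, GRCm38.p6), the receptor itself, had 163, 185 and 169.8 CPM in MKO HFD and 213, 258 and 178 CPM in MKO NCD. In WT it had 128, 130.4 and 117 CPM on HFD and 149.8, 176 and 203 CPM on NCD. All 3 WT HFD libraries lay below every other library, and the 2 diets overlapped in MKO. Insr fell by 0.49 (SE 0.15, adjusted p = 0.0408) on HFD in WT. That call was lost without any of 9 libraries (the 3 of MKO HFD, MKO NCD rep 1, the 3 of WT HFD, and WT NCD rep 2 and rep 3), with an adjusted p of up to 0.125, and also with no filter on low counts (adjusted p = 0.0536) and with the replicate block (adjusted p = 0.0579). The log2 fold change on HFD in MKO was -0.33 (SE 0.15, adjusted p = 0.292). MKO against WT gave 0.46 (SE 0.15, adjusted p = 0.132) on HFD, without overlap, and 0.30 (SE 0.15, adjusted p = 0.304) in the NCD libraries. The average over diets was 0.38 (SE 0.10, adjusted p = 0.0519).

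Irs1 (chr1:82233105-82291439), the docking protein that links the receptor to phosphatidylinositol 3-kinase, had the smallest adjusted p of the 9 members for the diet in WT and for the genotype on HFD. It had 56.9, 62.7 and 56.2 CPM in MKO HFD and 77.55, 79.96 and 98.8 CPM in MKO NCD. The WT libraries had 34.85, 25.2 and 28.4 CPM on HFD and 68.0, 66.6 and 66.6 CPM on NCD. The 4 groups did not overlap at all, and stood in the order WT HFD, MKO HFD, WT NCD, MKO NCD from low to high. On HFD in WT Irs1 fell by 1.19 on the log2 scale (SE 0.13, adjusted p = 3.69e-04), to 29.5 ± 4.91 CPM on HFD, against 67.1 ± 0.808 CPM on NCD (SD, n = 3 each). This call held in each fit that left out 1 of the 12 libraries. In MKO the log2 fold change was -0.54 (SE 0.13, adjusted p = 0.0669), to 58.6 ± 3.60 CPM on HFD, against 85.4 ± 11.6 CPM on NCD (SD, n = 3 each). On HFD Irs1 was 1.99 times as high in MKO as in WT (0.99, SE 0.13, adjusted p = 0.00945), with an adjusted p of up to 0.0547 without MKO HFD rep 1 or rep 2. On NCD the log2 fold change was 0.35 (SE 0.13, adjusted p = 0.168), and for both diets together it was 0.67 (SE 0.09, adjusted p = 0.00298), which held without any 1 library. The diet effects differed by 0.64 (SE 0.19, adjusted p = 0.144).

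Irs2 (chr8:10984681-11008929), the other main docking protein, did not follow Irs1 between genotypes. It had 34.97, 30.1 and 57.9 CPM in MKO HFD, 75.96, 86.0 and 72.6 CPM in MKO NCD, 50.5, 61.2 and 43.3 CPM in WT HFD and 79.6, 117 and 88.3 CPM in WT NCD. All HFD libraries lay below all NCD libraries, in both genotypes, and MKO overlapped WT on each diet. Irs2 fell by 0.88 (SE 0.24, adjusted p = 0.0273) on HFD in WT, a call lost without WT HFD rep 1, WT HFD rep 3 or WT NCD rep 2 (adjusted p up to 0.102). In MKO the value was -0.93 (SE 0.24, adjusted p = 0.0810), and of the fits that left out 1 library only that without MKO HFD rep 3 called it (adjusted p = 0.0299). DESeq2 (adjusted p = 0.00556) and limma-voom with sample weights (adjusted p = 0.0158) called it too. MKO against WT gave -0.33 (SE 0.24, adjusted p = 0.616) on HFD and -0.28 (SE 0.24, adjusted p = 0.577) on NCD.

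Pik3r1 (chr13:101680761-101768217), whose protein holds and stabilises the catalytic subunit of phosphatidylinositol 3-kinase, had the largest SE of the 9 members. It read 481, 483 and 249.9 CPM in MKO HFD, 293, 694 and 546.5 CPM in MKO NCD, 184, 205 and 177 CPM in WT HFD and 374, 187 and 235 CPM in WT NCD. On HFD every MKO library lay above every WT library, and on NCD the genotypes overlapped. Averaged over diets Pik3r1 was 2.03 times as high in MKO (1.02, SE 0.25, adjusted p = 0.0328). That call was lost without any of 8 libraries (MKO HFD rep 1 or rep 2, MKO NCD rep 3, each of the 3 of WT HFD, and WT NCD rep 2 or rep 3), with an adjusted p of up to 0.0899, and with the replicate block (adjusted p = 0.0654). The genotype values were 1.10 (SE 0.35, adjusted p = 0.133) on HFD and 0.94 (SE 0.35, adjusted p = 0.158) for the NCD libraries, and the diet values were -0.34 (SE 0.35, adjusted p = 0.691) in MKO and -0.49 (SE 0.35, adjusted p = 0.380) in WT.

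Akt1 (chr12:112653821-112674884) and Akt2 (chr7:27591552-27640826) encode sister kinases, of which AKT2 is the one most tied to insulin-driven glucose uptake in mouse fat. Akt1 had 97.0, 94.8 and 89.6 CPM in MKO HFD, 102, 102.5 and 106 CPM in MKO NCD, 106, 126 and 109 CPM in WT HFD and 103.5, 105 and 77.0 CPM in WT NCD. Its HFD libraries lay below its NCD libraries in MKO and above them in WT. The diet values were -0.14 (SE 0.12, adjusted p = 0.628) in MKO and 0.26 (SE 0.12, adjusted p = 0.175) in WT, and their difference of -0.40 (SE 0.17, adjusted p = 0.353) did not pass. Akt2 had 392, 535 and 421.5 CPM in MKO HFD, 442, 557 and 529.6 CPM in MKO NCD, 329.8, 283 and 323 CPM in WT HFD and 245, 423 and 269 CPM in WT NCD. Every MKO library lay above every WT library on the same diet, and the diets overlapped in each genotype. Akt2 was 1.53 times as high in MKO averaged over diets (0.62, SE 0.14, adjusted p = 0.0279). The call was lost without MKO HFD rep 2, MKO NCD rep 3, WT HFD rep 2, WT HFD rep 3 or WT NCD rep 3, with an adjusted p of up to 0.0799. On NCD the genotype value was 0.71 (SE 0.20, adjusted p = 0.0759), and on HFD it was 0.53 (SE 0.20, adjusted p = 0.226). The diet values of Akt2 were -0.18 (SE 0.20, adjusted p = 0.719) in MKO and 0.00 (SE 0.20, adjusted p = 0.997) in WT.

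Tbc1d4 (chr14:101442360-101609281), the AKT substrate that restrains GLUT4 vesicles, was called higher in MKO on HFD and averaged over diets, and not on NCD or by diet. It had 89.7, 103 and 80.4 CPM in MKO HFD, 73.96, 86.7 and 84.8 CPM in MKO NCD, 64.5, 64.0 and 64.1 CPM in WT HFD and 63.0, 72.5 and 71.1 CPM in WT NCD. Every MKO library lay above every WT library, on both diets. On HFD Tbc1d4 was 1.42 times as high in MKO (0.50, SE 0.11, adjusted p = 0.0353), a call lost without MKO HFD rep 1, MKO HFD rep 2, MKO NCD rep 3 or any 1 of the 3 WT HFD libraries (adjusted p up to 0.179), with no filter on low counts (adjusted p = 0.0523) or with the replicate block (adjusted p = 0.0651). On NCD the genotype value was 0.25 (SE 0.11, adjusted p = 0.248). Averaged over diets the log2 fold change was 0.38 (SE 0.08, adjusted p = 0.0179), with an adjusted p of up to 0.0523 without MKO HFD rep 2 or WT HFD rep 2. The diet values were 0.15 (SE 0.11, adjusted p = 0.528) in MKO and -0.10 (SE 0.11, adjusted p = 0.599) in WT.

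Slc2a4 (chr11:69942286-69948216), which encodes GLUT4, the transporter that insulin moves to the cell surface, had the largest fold changes of the 9 members both for the diet in WT and for the genotype on HFD. It had 178.5, 176 and 134 CPM in MKO HFD, 230.0, 284 and 274 CPM in MKO NCD, 84.2, 48.8 and 77.1 CPM in WT HFD and 184, 185 and 148 CPM in WT NCD. WT HFD lay below all other libraries and MKO NCD above all others, while MKO HFD overlapped WT NCD. On HFD in WT Slc2a4 fell to 0.406 times its NCD level (SE of the log2 value 0.20, adjusted p = 0.00169), to 70.0 ± 18.8 CPM on HFD, against 172 ± 20.96 CPM on NCD (SD, n = 3 each), and the call held without any 1 library. In MKO the value was -0.69 (SE 0.20, adjusted p = 0.113), to 163 ± 25.0 CPM on HFD, against 263 ± 28.8 CPM on NCD (SD, n = 3 each). On HFD Slc2a4 was 2.33 times as high in MKO as in WT (1.22, SE 0.20, adjusted p = 0.0129), with an adjusted p of up to 0.0719 without MKO HFD rep 1, MKO HFD rep 2 or WT HFD rep 2. On NCD the value was 0.61 (SE 0.20, adjusted p = 0.111). The average over diets was 0.91 (SE 0.14, adjusted p = 0.00496), which held without any 1 library, and the diet effects differed by 0.61 (SE 0.28, adjusted p = 0.392).

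Foxo1 (chr3:52268337-52350109), the transcription factor that insulin keeps inactive, had 100.5, 104 and 110.2 CPM in MKO HFD, 138, 124 and 146 CPM in MKO NCD, 84.9, 72.0 and 84.6 CPM in WT HFD and 73.8, 72.6 and 99.4 CPM in WT NCD. All MKO libraries lay above all WT libraries, and the 2 diets overlapped in WT but not in MKO. On NCD Foxo1 was 1.66 times as high in MKO (0.73, SE 0.14, adjusted p = 0.0149), a call lost without MKO NCD rep 3 or WT NCD rep 1 (adjusted p up to 0.0633) and in a fit of only the NCD libraries (adjusted p = 0.139). On HFD the value was 0.38 (SE 0.13, adjusted p = 0.177). The average over diets was 0.56 (SE 0.10, adjusted p = 0.00760), which held without any 1 library. The diet values were -0.37 (SE 0.13, adjusted p = 0.196) in MKO and -0.03 (SE 0.13, adjusted p = 0.935) in WT.

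**Figure D2:**
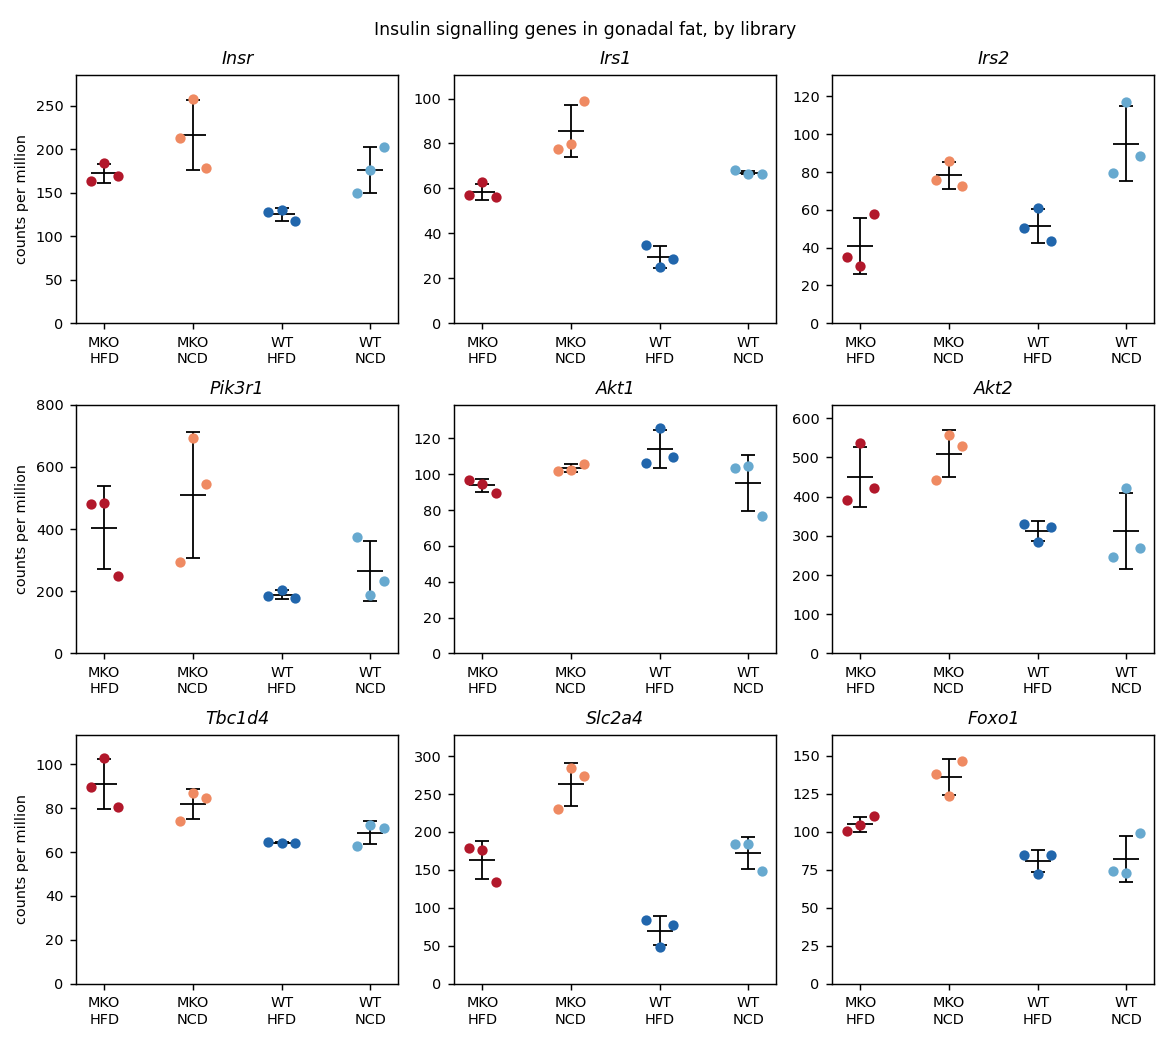
CPM of each member (y axis, from 0) in the 12 libraries by group (x axis); points are libraries, the horizontal dash and bars are the mean and SD of 3. Slc2a4 and Irs1 are lowest in the WT HFD libraries, Irs2 is low on HFD in both genotypes, and Foxo1 and Tbc1d4 are higher in every MKO library than in every WT library.

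Groups that did not overlap were also counted, with no test. On HFD 7 members lay higher in every MKO library and Akt1 lay lower, where 15.8% and 17.3% of all genes did so. On NCD 5 members lay higher in every MKO library, where 9.63% of genes did so. In MKO 5 members lay lower in every HFD library, where 9.17% of genes did so. In WT 4 members lay lower and Akt1 higher in every HFD library, where 24.2% and 22.8% of genes did so.

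Ratios of TPM within a library compare related genes without depending on library scaling. They were tested by a two-sided exact permutation test of the mean log2 ratio, with 18 tests adjusted by Benjamini-Hochberg. The ratio of Irs1 to Irs2 was 1.21, 1.54 and 0.719 in MKO HFD, 0.757, 0.689 and 1.01 in MKO NCD, 0.511, 0.305 and 0.486 in WT HFD and 0.633, 0.421 and 0.560 in WT NCD. All MKO libraries lay above all WT libraries. The ratio was higher in MKO by 0.99 on the log2 scale with labels permuted within diets (exact p = 0.005, the smallest that test can give, adjusted p = 0.0225). Between diets, permuted within genotypes, it differed by 0.06 (exact p = 0.800).

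The ratio of Akt1 to Akt2 was 0.383, 0.265 and 0.328 in MKO HFD, 0.343, 0.264 and 0.312 in MKO NCD, 0.524, 0.720 and 0.552 in WT HFD and 0.686, 0.369 and 0.448 in WT NCD. On each diet all MKO libraries lay below all WT libraries. The ratio was lower in MKO by a log2 difference of -0.78 (exact p = 0.005, adjusted p = 0.0225), and the diet difference was 0.18 (exact p = 0.330). The ratio of Slc2a4 to Slc2a1, which encodes the insulin-independent transporter GLUT1, was 14.8, 11.9 and 10.5 in MKO HFD, 19.0, 33.7 and 18.3 in MKO NCD, 5.67, 2.81 and 4.93 in WT HFD and 12.5, 11.9 and 10.4 in WT NCD. It was higher in MKO by 1.25 and lower on HFD by a log2 difference of -1.16 (each exact p = 0.005, adjusted p = 0.0225). Slc2a1 itself had 9.25 ± 0.959 TPM in MKO HFD, 8.5 ± 2.42 TPM in MKO NCD, 12.3 ± 1.43 TPM in WT HFD and 12.2 ± 0.555 TPM in WT NCD (SD, n = 3 each). With 3 libraries against 3 no single pair of groups can reach an exact p below 0.1.

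**Figure D3:**
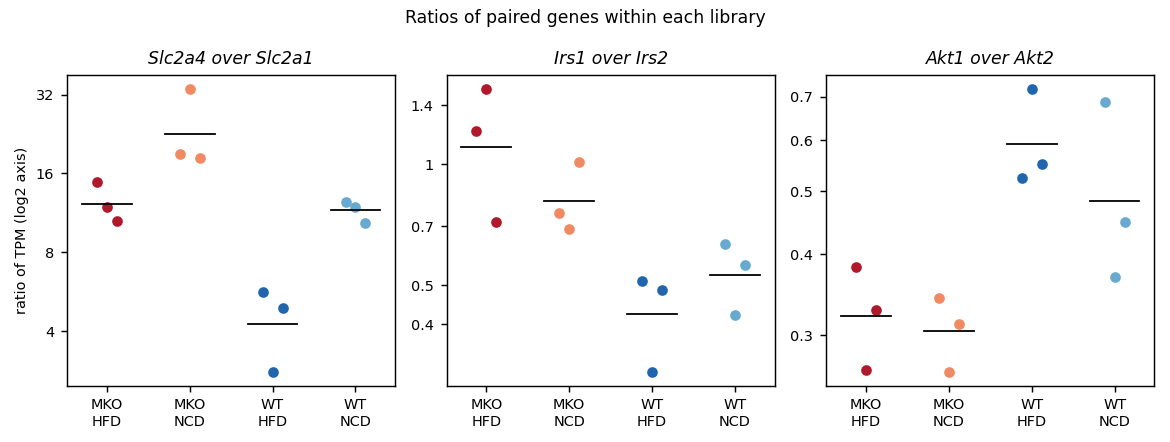
Ratio of TPM (log2 y axis) of 3 gene pairs in the 12 libraries by group (x axis); points are libraries and lines are means of the log2 ratio. Irs1 over Irs2 is higher and Akt1 over Akt2 lower in the MKO libraries than in the WT libraries of the same diet, and Slc2a4 over Slc2a1 is lowest, at 2.81 to 5.67, in WT HFD.

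The members are expressed in several cell types of fat, and markers of those cells moved with the groups. In bulk tissue fewer cells of a type and less RNA per cell cannot be told apart. The mean log2 CPM of the 10 adipocyte markers was 11.24 to 11.51 in MKO HFD, 11.64 to 11.93 in MKO NCD, 10.15 to 10.66 in WT HFD and 10.81 to 11.55 in WT NCD. It differed between MKO and WT by 0.93 on HFD and 0.67 on NCD, and between HFD and NCD by -0.39 in MKO and -0.64 in WT. Of these markers 5 were called higher in MKO on HFD, 2 on NCD, and in WT 1 was higher and 4 lower on HFD. Over all tested genes, 1.34% were called higher and 2.24% lower in MKO on HFD, and 2.22% higher on NCD. In WT 9.5% were called higher and 8.28% lower on HFD. Without MKO HFD rep 1 or rep 2, only 7 and 13 genes of the whole table were called between genotypes on HFD. The adipocyte markers moved unequally. Cfd had a mean of 366 CPM in WT HFD and 7121 CPM in WT NCD, and Retn had 203.5 and 782 CPM. In MKO HFD these 2 had 1600 and 1145 CPM. For HFD against NCD in WT, 6 of the 10 had negative and 4 had positive fold changes. Dgat2, for 1, had 1960 CPM in WT HFD and 979 CPM in WT NCD. The 10 macrophage markers summed to 414 to 1101 CPM in MKO HFD and 2749 to 4181 CPM in WT HFD, with 8 of 10 called lower in MKO. In the NCD libraries they summed to 496 to 643 CPM in MKO and 360 to 879 CPM in WT, and 7 of 10 were called higher on HFD in WT. The 8 markers of lipid-associated macrophages, the macrophages of obese fat, summed to 423 to 854 CPM in MKO HFD, 342 to 349.6 CPM in MKO NCD, 1410 to 2799 CPM in WT HFD and 171 to 235 CPM in WT NCD. All 8 were called higher on HFD in WT, and 3 were called lower in MKO on HFD. The 9 fibroblast and progenitor markers summed to 1938 to 2747 CPM in MKO HFD, 2270 to 2729 CPM in MKO NCD, 4517 to 6055 CPM in WT HFD and 1435 to 2822 CPM in WT NCD. Of these, 6 were called higher on HFD in WT and 4 lower in MKO on HFD. WT HFD fat, the group lowest in Irs1, Slc2a4 and Insr, had the lowest adipocyte marker means (log2 CPM). It had the highest sums of the macrophage, lipid-associated macrophage, and fibroblast and progenitor lists. By sum, the adipocyte markers were not lowest there. They summed to 28680 to 38020 CPM (median 33960) in WT HFD and 26150 to 46360 CPM (median 31030) in WT NCD. The 7 endothelial markers summed to 801 to 1018 CPM in MKO HFD and 449 to 1016 CPM in MKO NCD. In WT they summed to 702 to 936 CPM on HFD and 234 to 586 CPM on NCD. For MKO against WT all 7 had positive fold changes on NCD (1 called), and 5 did on HFD (0 called). WT NCD, the reference for the diet in WT and the genotype on NCD, also held the epididymis transcripts. Their part in the changes of the members was not tested.

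Each member was also set against the adipocyte markers of the same library, as the log2 CPM minus the marker mean. That mean weighs all 10 markers alike, Cfd and Retn included. A gene of equal CPM in both groups does not stand at 0 on this scale: over all tested genes the median difference between MKO and WT was -0.93 on HFD and -0.90 on NCD, and that between HFD and NCD was 0.53 in MKO and 0.56 in WT. For MKO against WT on HFD, the difference of Slc2a4 was 0.32 and the groups did not overlap, where 0.887% of genes lay higher in every MKO library. For Irs1 it was 0.08 and for Pik3r1 0.11, with overlap in both. It was negative without overlap for the other 6, Insr (-0.46), Irs2 (-1.30), Akt1 (-1.20), Akt2 (-0.41), Foxo1 (-0.54) and Tbc1d4 (-0.43), where 72.0% of genes lay lower in every MKO library, so this count is near the share over all genes. Irs2 and Akt1 were below the median of all genes and the other 4 above it.

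On NCD, MKO against WT was negative without overlap for Irs2 (-0.94), Akt1 (-0.54) and Tbc1d4 (-0.42), where 42.1% of genes lay lower in every MKO library. The other 6 overlapped, at -0.38 for Insr, -0.33 for Irs1, -0.06 for Slc2a4, 0.07 for Akt2, 0.07 for Foxo1 and 0.25 for Pik3r1. For HFD against NCD, Slc2a4 relative to the markers was lower without overlap in MKO (-0.31) and in WT (-0.69), where 2.35% and 8.65% of genes were. Tbc1d4 was higher without overlap in MKO (0.54) and in WT (0.54), and so was Akt1 (0.25 in MKO and 0.92 in WT), where 37.0% of genes in MKO and 40.6% in WT were. Akt2 (0.68) and Foxo1 (0.63) were higher without overlap in WT and overlapped in MKO. Irs1 overlapped in MKO (-0.15) and in WT (-0.56), and so did Irs2 (-0.60 in MKO and -0.23 in WT), Insr (0.08 in MKO and 0.16 in WT) and Pik3r1 (0.08 in MKO and 0.21 in WT). What part the marker levels have in each change was not tested.

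**Figure D4:**
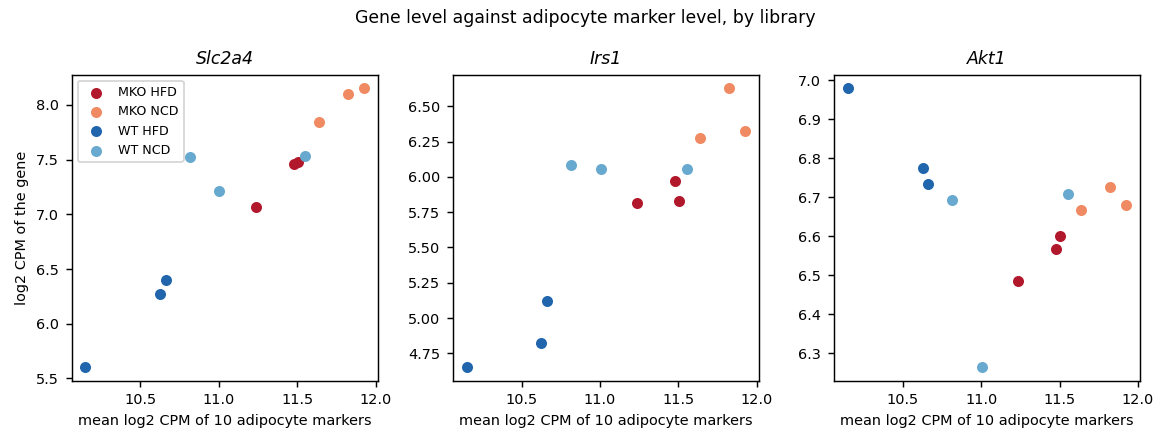
Log2 CPM of Slc2a4, Irs1 and Akt1 (y axes) against the mean log2 CPM of 10 adipocyte markers (x axis); each point is 1 of the 12 libraries, coloured by group. The WT HFD libraries, at marker means of 10.15 to 10.66, are at the low end for Slc2a4 and Irs1 and at the high end for Akt1.

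Around the 9 members, 70 further genes in 7 lists covered the rest of the pathway, of which 69 were tested. In MKO 0 were higher and 6 lower on HFD, and in WT 7 were higher and 15 lower. Between genotypes 10 were higher and 3 lower in MKO on HFD, 6 higher and 5 lower on NCD, and 15 higher and 6 lower averaged over diets. Over all tested genes, 2.01% changed on HFD in MKO, 17.8% on HFD in WT, 3.57% between genotypes on HFD, 4.35% on NCD and 7.26% averaged over diets. The median log2 fold changes were -0.06, -0.12, 0.02, 0.12 and 0.07 in that order. None passed the test of the difference between diet effects. The 13 calls between genotypes on HFD were 0 without MKO HFD rep 1 or rep 2, 1 without WT HFD rep 2, 2 without WT HFD rep 1, 6 without WT HFD rep 3, 7 without MKO NCD rep 1 and 8 without MKO NCD rep 3. The 11 calls on NCD dropped to 6 when MKO NCD rep 3 was left out, to 4 when WT NCD rep 1 was, and to 5 when WT NCD rep 3 was. The 6 calls in MKO were 1 to 3 without any 1 HFD library or without MKO NCD rep 2 or rep 3, and 4 without WT NCD rep 2. The 21 calls averaged over diets were 13 without MKO HFD rep 2 and 14 without MKO HFD rep 1 or WT HFD rep 2. Of the 22 calls in WT, 16 held in each fit that left out 1 library.

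Among 8 partners at the receptor, HFD in WT came with more Grb2, the adaptor to RAS (0.82, SE 0.14, adjusted p = 0.00276), and less Igf1r, the receptor for insulin-like growth factor (-1.16, SE 0.22, adjusted p = 0.00427). Irs3, a docking protein of rodent fat, had 66.0 ± 1.74 CPM in MKO HFD and 34.0 ± 3.69 CPM in WT HFD (SD, n = 3 each), without overlap, and did not pass (0.96, SE 0.28, adjusted p = 0.0995); it was named after its values were seen. Among 12 partners of phosphatidylinositol 3-kinase, Pik3cd, the catalytic subunit of blood cells, rose on HFD in WT (1.67, SE 0.33, adjusted p = 0.00559), beside the macrophage marker sums given above. Pik3cb, a widely expressed catalytic subunit, was higher in MKO averaged over diets (0.67, SE 0.14, adjusted p = 0.0156).

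Of 14 genes of GLUT4 vesicle traffic, 2 rose and 4 fell on HFD in WT, where 9.5% of all tested genes rose and 8.28% fell. Sort1, the sorting receptor of GLUT4 vesicles (-0.88, SE 0.11, adjusted p = 5.82e-04), and Vamp2, their SNARE (-0.86, SE 0.16, adjusted p = 0.00420), fell. Snap23, the SNARE at the plasma membrane (0.68, SE 0.09, adjusted p = 8.86e-04), and Stxbp3, which binds syntaxin there (0.65, SE 0.12, adjusted p = 0.00397), rose. Averaged over diets, Myo1c, a motor of GLUT4 vesicles (0.58, SE 0.08, adjusted p = 0.00198), Rhoq, the GTPase TC10 (0.59, SE 0.09, adjusted p = 0.00422), and Rab10, the GTPase on which TBC1D4 acts (0.34, SE 0.06, adjusted p = 0.00788), were higher in MKO. Tbc1d1, the relative of Tbc1d4, went the other way (-1.03, SE 0.19, adjusted p = 0.0110). It had 24.1 ± 7.46 CPM in MKO NCD and 70.5 ± 23.1 CPM in WT NCD (SD, n = 3 each), the group with the epididymis transcripts, whose part in this was not tested.

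Among 8 other glucose transporters and hexokinases, Slc2a3, the high-affinity transporter GLUT3, fell on HFD in both genotypes. It had 8.07 ± 2.90 CPM in MKO HFD and 36.9 ± 8.72 CPM in MKO NCD, and 3.90 ± 0.467 CPM in WT HFD and 51.6 ± 9.36 CPM in WT NCD (SD, n = 3 each). The log2 fold changes were -2.19 (SE 0.28, adjusted p = 0.00616) in MKO and -3.72 (SE 0.30, adjusted p = 8.95e-05) in WT, and both held without any 1 library. The call in MKO was lost in a fit of only the MKO libraries. Hk2, the hexokinase of insulin-responsive tissues, fell on HFD in WT (-0.73, SE 0.13, adjusted p = 0.00378) and was higher in MKO on HFD (0.70, SE 0.13, adjusted p = 0.0213), the second call being lost without MKO HFD rep 1 or rep 2 or any 1 of the 3 WT HFD libraries, and with the replicate block. Hk3, the hexokinase of myeloid cells, rose on HFD in WT (3.71, SE 0.63, adjusted p = 0.00256), beside the same macrophage sums.

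Of 14 negative regulators, 1 rose and 1 fell on HFD in WT, where 17.8% of all genes changed, so their count was no higher than that share. Pid1, whose protein lowers IRS1 phosphorylation in cultured fat cells, rose (0.84, SE 0.17, adjusted p = 0.00566), and Ptprf, the phosphatase LAR, fell (-1.15, SE 0.22, adjusted p = 0.00528). Ptprf had 35.2 ± 6.37 CPM in WT HFD and 78.3 ± 9.23 CPM in WT NCD (SD, n = 3 each), the group with the epididymis transcripts, whose part was not tested. Grb10, an adaptor that dampens the receptor, was higher in MKO averaged over diets (0.39, SE 0.08, adjusted p = 0.0165).

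Of the 6 genes of FOXO and insulin-responsive transcription, 1 rose and 3 fell on HFD in WT, where 9.5% of all tested genes rose and 8.28% fell. On HFD 3 were higher in MKO, where 1.34% of all tested genes were. Pck1, the glyceroneogenic enzyme of fat, had 765 ± 84.0 CPM in MKO HFD and 1823 ± 326 CPM in MKO NCD, and 261 ± 33.1 CPM in WT HFD and 1871 ± 731 CPM in WT NCD (SD, n = 3 each). It fell by 2.84 (SE 0.26, adjusted p = 1.40e-04) on HFD in WT and was higher in MKO on HFD by 1.55 (SE 0.25, adjusted p = 0.0120), the second call being lost without MKO HFD rep 1, MKO HFD rep 2 or WT HFD rep 2. Averaged over diets, the lipogenic factors Srebf1 (0.81, SE 0.14, adjusted p = 0.00844) and Mlxipl, encoding ChREBP (0.94, SE 0.16, adjusted p = 0.00669), were higher in MKO. Their calls for the diet in WT and the genotype on HFD were each lost without any of 6 (Srebf1) or 7 (Mlxipl) libraries. Of 7 factors known to act on Slc2a4, 3 fell on HFD in WT and 3 were higher in MKO on HFD, beside the same shares over all genes. The 3 higher in MKO on HFD were Klf15, Pparg and Cebpa, and each call was lost without MKO HFD rep 1 or rep 2. Klf15, an activator of Slc2a4, had 66.3 ± 11.1 CPM in MKO HFD and 23.5 ± 10.2 CPM in WT HFD (SD, n = 3 each). It was 2.83 times as high in MKO on HFD (SE of the log2 value 0.29, adjusted p = 0.0213), a call lost without MKO HFD rep 1, MKO HFD rep 2 or WT HFD rep 1. Hdac5, a repressor of Slc2a4, fell on HFD in MKO (-0.79, SE 0.13, adjusted p = 0.0179, lost without MKO HFD rep 1, MKO HFD rep 2 or MKO NCD rep 3, with the replicate block and in a fit of only the MKO libraries) and in WT (-0.71, SE 0.13, adjusted p = 0.00450).

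The authors' deposited table gives its own genotype comparisons. On HFD its adjusted p was under 0.05 for 7 members, all higher in MKO, with a fold change of 1.99 for Irs1, 2.33 for Slc2a4 and 2.14 for Pik3r1 in the authors' deposited table. On NCD the authors' deposited table has 2 members under 0.05, Slc2a4 at a fold change of 1.46 and Foxo1 at 1.58. The signed HFD fold change in the authors' deposited table is negative for Irs2 (-1.26) and Akt1 (-1.21), and neither is under 0.05. The share of all genes under 0.05 in that table is not given here, so the counts of 7 and 2 have no background. The DESeq2 fit made here called 8.61% of all genes for MKO against WT on HFD and 10.9% on NCD.

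As a description, the 9 members also differed in how they varied over the 12 libraries, which share groups and so are not independent. Pearson's r of log2 CPM was 0.97 between Irs1 and Slc2a4, the highest of any pair, and 0.97 without MKO NCD rep 2. It was 0.81 between Insr and Irs1 and 0.81 between Akt2 and Tbc1d4. Akt1 had a negative r with each of the other 8, the farthest from 0 being -0.49 with Insr. Irs2 had its highest r with Irs1, at 0.40. The tested genes outside the list closest to Slc2a4 were Maob, Gsta3 and Gpt2 (each 0.98), and those closest to Irs1 were Slc44a3 (0.98), Mogat1 (0.98) and Syt14 (0.97). Rab15 (0.94) was closest to Irs2, Snrk (0.96) to Foxo1, Tmem120a (0.97) to Akt2, Pank3 (0.96) to Insr, Trub2 (0.94) to Tbc1d4, Atg9a (0.93) to Pik3r1 and Snx2 (0.88) to Akt1. Without MKO NCD rep 2 these r values ranged from 0.88 to 0.98.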

How the data were processed

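RNA of 12 gonadal fat libraries was read from 1 table. Per the labels' protocols, a stranded kit for mRNA was used. The tools listed, per the submitters' processing notes, are DESeq2, StringTie 1.3.4d, HISAT2 2.1.0, Trimmomatic and bcl2fastq 2.20.0, with the genome mm10; the counter and its strand setting are not given in the sources used here. Genes annotated over a member read at most 0.9429 CPM in any library.

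The authors deposited raw read counts, which were tested here, and TPM, used for levels between genes and for ratios. The FPKM values that the authors deposited were used only to repeat the ratio tests in place of TPM. All 36 repeats with FPKM or counts kept direction and side of an exact p of 0.05. The signed fold change of the authors' deposited table, a score per gene, and the deposited p-values were copied as given.

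Counts were filtered with filterByExpr by group, scaled by TMM and fitted as 4 groups in 1 model with edgeR 4.0.16 (R 4.3.3, robust quasi-likelihood), with Benjamini-Hochberg adjustment over 20297 genes. Log2 CPM values use a prior count of 2 in the correlations, and no prior count for the adipocyte marker means and the members set against them. Alternatives were size factors by RLE or by upper quartile, no filter, a filter of 1 CPM in 3 libraries, no robust estimation, DESeq2 1.42.0, limma-voom (limma 3.58.1) with and without sample weights, only the libraries compared, a block by replicate number, and leaving out each library. The test was checked on simulated counts. Promoter windows and gene positions were matched by symbol or gene identifier to RefSeq tables. Figures were drawn with matplotlib 3.10.9.

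The labels call replicates biological but do not pair them across groups. The members, lists and tests were chosen with earlier results of these data known. Named are all 9 members, from each pathway list a subset of the up to 4 called genes with the smallest p per comparison (or the 1 with the smallest p where none was called), and the 3 genes closest to each member in Pearson's r. Slc2a1 was named for the ratio. Some genes of the pathway lists are counted but not reported here by name.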

Additional observations from a re-analysis of the deposited data

Results flagged for a closer look

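The diet effect of Akt1 drew a closer look because every MKO HFD library lay below every MKO NCD library while every WT HFD library lay above every WT NCD library. The log2 diet effect in MKO minus that in WT was -0.402 (SE 0.17), with an edgeR adjusted p of 0.353 and an unadjusted p of 0.0422. Without any 1 library the difference ranged from -0.48 to -0.26, and the lowest WT NCD value, 77.0 CPM, came from 1 library, rep 3.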

How the results depend on the processing

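Of 58 counts of called members under settings other than leaving out a library, 49 stayed within 1.5 times the value reported, and of 522 fold changes 490 kept direction and side of the threshold. DESeq2 called 3 members for HFD against NCD in MKO (8.57% of all genes called), 5 for MKO against WT on HFD (8.61%), 2 on NCD (10.9%) and 1 for the difference of diet effects (5.56%). Limma-voom with sample weights called 3 for the diet in MKO (6.8% of all genes) and 7 for the genotype on HFD (18.1%), and plain limma-voom called 2 on NCD (6.98%). Fits of only the libraries compared called 6 on HFD, with 12.7% of all genes called, and 0 on NCD, with 0.276%. Each of these shares was larger than that of the main edgeR fit, except on NCD in the fit of only those libraries. The fit of only the MKO libraries also called fewer for the diet, 0.235% against 2.01%. The cause was not tested.

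Leaving out 1 library gave 0 to 1 members for the diet in MKO, 2 to 4 for the diet in WT, 0 to 3 for the genotype on HFD, 0 to 2 on NCD and 3 to 6 averaged over diets. In the same fits the share of all genes called was 0.348 to 2.23% for the diet in MKO and 8.78 to 31.4% in WT. For the genotype it was 0.0325 to 7.32% on HFD, 1.82 to 4.76% on NCD and 2.85 to 11% averaged over diets. The diet difference of the ratio of Irs1 to Irs2 within genotypes then ranged from -0.059 to 0.216. Small effects changed sign: in WT the diet value was 0.036 for Akt2 under limma-voom and 0.042 under the replicate block, and 0.03 for Foxo1 under limma-voom with sample weights, and in MKO that of Pik3r1 was 0.13 under the same weights. Leaving out 1 library, ranges were -0.17 to 0.28 for Akt2 and -0.12 to 0.12 for Foxo1 (diet in WT), -0.009 to 0.196 for Akt1 (genotype on NCD), -0.39 to 0.13 for Irs2 and -0.15 to 0.44 for Pik3r1 (difference of diet effects), and -0.049 to 0.218 for the Akt1 to Akt2 ratio (diet in MKO).

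Replicate numbers did not pair the samples: over 18 same-numbered pairs, correlations of deviations were -0.14 to 0.17, with 3 over 0.1. The fit with the replicate block called 0 members for the diet in MKO (0.788% of all genes called), 3 in WT (13.9%), 2 for the genotype on HFD (1.29%), 1 on NCD (2.37%) and 5 averaged over diets (4.11%). For the 69 pathway genes, calls for MKO against WT on HFD ranged from 0 to 18 higher and 0 to 12 lower over all settings. With 3 libraries a group, a fold change whose test misses the threshold is not shown to be absent.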
